A study of Homo sapiens with 6 samples.

Results

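The genes described here encode the heat shock proteins of the HSP90, HSP70, HSP110 and small HSP families, the mitochondrial chaperonin, the J-domain co-chaperones and the heat shock factors HSF1 and HSF2. They were taken by symbol, as every row whose name begins with DNAJA, DNAJB or DNAJC, HSPA or HSPB and a number, or with HSP90, together with HSPD1, HSPE1, HSPH1, HSF1 and HSF2. This rule found 71 of the 17114 gene symbols listed. The cells were 786-O, a cell line derived from human clear cell kidney cancer, given either Vehicle (3 libraries) or XMU_MP_1 (3 libraries). XMU-MP-1 blocks MST1 and MST2, the upstream kinases of the Hippo pathway. Neither dose nor duration is stated by the labels, which call the exposure a transfection.

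HSP70 proteins bind unfolded stretches of other proteins and release them in a cycle driven by ATP. J-domain proteins hand clients to HSP70 and stimulate its ATPase, nucleotide exchange factors (among them the HSP110 proteins) reset it, and HSP90 takes over clients such as kinases and receptors at a later stage. Small HSPs hold misfolded proteins without ATP. HSF1 switches on many of these genes after heat or other proteotoxic stress by binding heat shock elements, inverted repeats of the unit GAA, in their promoters.

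Of the 63 members with a promoter window in RefSeq (250 bases before to 50 after a transcript start, GRCh38.p14), 7 held a heat shock element of 3 adjoining units, GAANNTTCNNGAA or its reverse complement TTCNNGAANNTTC, in at least 1 of their windows. Some members have several windows, so that 83 windows stand behind these 63 genes, and 0.490% of all 35116 RefSeq windows held the element. The 7 were HSPA8, HSP90AA1, HSP90AB1, HSPA6, HSPD1, DNAJA1 and DNAJB6. The windows of 5 members are shown because they belong to the most abundant HSP70 gene, the cytosolic HSP90 gene that rose, the near-identical HSPA1A and HSPA1B, and a J-domain gene that fell. HSP90AA1 has 2 windows, and the one shown was picked as that with the most elements of 2 units. Its other window held none. Capitals mark every element of 2 units, GAANNTTC or TTCNNGAA (each is its own reverse complement), and where these overlap they form an element of 3 units.

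HSPA8: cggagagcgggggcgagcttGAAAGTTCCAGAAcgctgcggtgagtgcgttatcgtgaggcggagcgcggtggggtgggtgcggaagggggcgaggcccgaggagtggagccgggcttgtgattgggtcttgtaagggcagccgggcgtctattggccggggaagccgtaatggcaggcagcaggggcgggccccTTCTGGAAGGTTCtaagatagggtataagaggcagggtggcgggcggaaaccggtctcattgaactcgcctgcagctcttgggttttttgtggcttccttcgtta
HSP90AA1: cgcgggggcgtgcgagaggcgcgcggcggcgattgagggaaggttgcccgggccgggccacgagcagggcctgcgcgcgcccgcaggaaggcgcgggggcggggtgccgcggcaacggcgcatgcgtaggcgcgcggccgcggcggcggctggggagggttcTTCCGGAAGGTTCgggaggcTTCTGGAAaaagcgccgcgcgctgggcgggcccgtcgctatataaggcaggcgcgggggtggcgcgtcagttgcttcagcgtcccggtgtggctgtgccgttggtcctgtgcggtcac
HSPA1A: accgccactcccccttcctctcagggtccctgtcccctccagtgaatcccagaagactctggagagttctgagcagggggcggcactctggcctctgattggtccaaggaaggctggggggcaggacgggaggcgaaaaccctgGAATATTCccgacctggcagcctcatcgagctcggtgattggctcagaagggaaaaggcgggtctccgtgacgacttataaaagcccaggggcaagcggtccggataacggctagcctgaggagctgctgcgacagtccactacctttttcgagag
HSPA1B: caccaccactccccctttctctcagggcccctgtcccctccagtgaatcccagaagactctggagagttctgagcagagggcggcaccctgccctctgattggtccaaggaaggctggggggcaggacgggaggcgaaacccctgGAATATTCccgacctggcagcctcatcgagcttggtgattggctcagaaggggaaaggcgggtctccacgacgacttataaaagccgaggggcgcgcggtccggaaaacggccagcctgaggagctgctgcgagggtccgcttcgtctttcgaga
DNAJA1: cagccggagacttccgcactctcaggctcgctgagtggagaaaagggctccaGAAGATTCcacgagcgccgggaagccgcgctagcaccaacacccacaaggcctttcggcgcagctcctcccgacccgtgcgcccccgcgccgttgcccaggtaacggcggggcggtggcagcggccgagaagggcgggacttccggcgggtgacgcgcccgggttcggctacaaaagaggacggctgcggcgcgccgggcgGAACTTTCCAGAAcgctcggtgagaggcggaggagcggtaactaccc

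The windows are chr11:123062087-123062386 on the minus strand for HSPA8, chr14:102086995-102087294 on the minus strand for HSP90AA1, chr6:31815293-31815592 on the plus strand for HSPA1A, chr6:31827488-31827787 on the plus strand for HSPA1B and chr9:33025023-33025322 on the plus strand for DNAJA1. HSPA8 held a 3-unit element at both -230 and -55 relative to the start, HSP90AA1 held one at -88, and DNAJA1 held one just inside the transcript at 4. The windows of HSPA1A and HSPA1B were identical at 277 of 299 aligned bases (92.6%) and held the same 2-unit element. These are matches of letters, and no binding was measured.

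Values are in FPKM, a level per length of transcript and relative to the total of the library, so that levels of different genes can be compared per length. The depth of the libraries is unknown, and the summed FPKM, which are not depths, ran from 454889 to 527709. Vehicle replicate 2 and XMU_MP_1 replicate 3 were each farther from the other 2 libraries of their group than those were from each other. Over 3950 genes averaging 20 FPKM or more, log2 differences had an SD of 0.0929 within the close Vehicle pair and 0.0718 within the close XMU_MP_1 pair, 0.146 to 0.158 in the other pairs within a group, and 0.377 to 0.452 between groups. All 8 renal carcinoma markers were detected, and of these 1 rose and 5 fell with XMU_MP_1 (limma, adjusted p under 0.05). Of all tested genes, 32.0% were higher and 25.9% lower. HAVCR1 fell from 43.6 ± 5.37 to 13 ± 1.59 FPKM (mean ± SD, n = 3 per group, here and below), LHX1 from 17.4 ± 0.852 to 6.99 ± 0.685, KRT18 from 286 ± 13.2 to 178 ± 12.8, KRT8 from 516 ± 2.98 to 371 ± 21.3 and CDH2 from 83.7 ± 5.53 to 70.7 ± 6.69. PAX8 rose from 114 ± 1.89 to 127 ± 5.34 FPKM, a call lost without Vehicle replicate 1, Vehicle replicate 3 or XMU_MP_1 replicate 2 and under 2 of the scalings, while PAX2 (4.03 ± 0.505 and 4.01 ± 0.163) and VIM (3583 ± 111 and 3187 ± 99.0) did not pass. The part of these marker changes in the results on the chaperone genes was not tested. The genes PTPRC, PECAM1, CDH5, ALB and DES, which mark other cell types, were listed at 0.45 FPKM or less in every library. CD68, often used for macrophages, was at 31.9 ± 0.979 and 31.7 ± 0.592 FPKM. The labels do not tell separate cultures from repeat libraries of 1 culture, and the p-values cover only the spread among these 6 libraries, which may be technical. In such bulk RNA, fewer cells of a kind and less RNA per cell cannot be told apart.

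More chaperone genes rose than fell with XMU_MP_1, and HSPA8 had the largest gain in FPKM. Testing needed an average of 1 FPKM or more across all 6 libraries, which 58 of the 71 members reached. Of these 58, 26 rose, 8 fell and 24 did not pass (limma on log2(FPKM + 1), Benjamini-Hochberg adjusted over all 11151 tested genes, threshold 0.05). The 34 that passed are 58.6% of the tested members, against 57.9% of all tested genes, a share near the background. The groups did not overlap for 39 members (67.2%), against 63.7% of all tested genes. Rises made up 44.8% of the tested members against 32.0% of all tested genes, and falls 13.8% against 25.9%. The median log2 change was 0.13 for the tested members and 0.04 for all tested genes. With every library scaled to the same summed FPKM, 20 members rose and 11 fell, beside 20.2% and 30.9% of all tested genes, and the share of rises among all calls went from 55.3% to 39.5%. Most changes were small: a call with an absolute log2 change of at least 0.5 was reached by 11 members (19.0%, against 17.5% of all tested genes). Of these, 9 were higher, beside 7.86% of all tested genes, and 2 were lower, beside 9.63%. DNAJC6 and DNAJC28 reached the level for testing through the XMU_MP_1 libraries, with Vehicle means below 1 FPKM, so that they were bound to differ. Both are among the 26 that rose, and DNAJC6 is among the 9 with the larger rises.

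**Figure D1:**
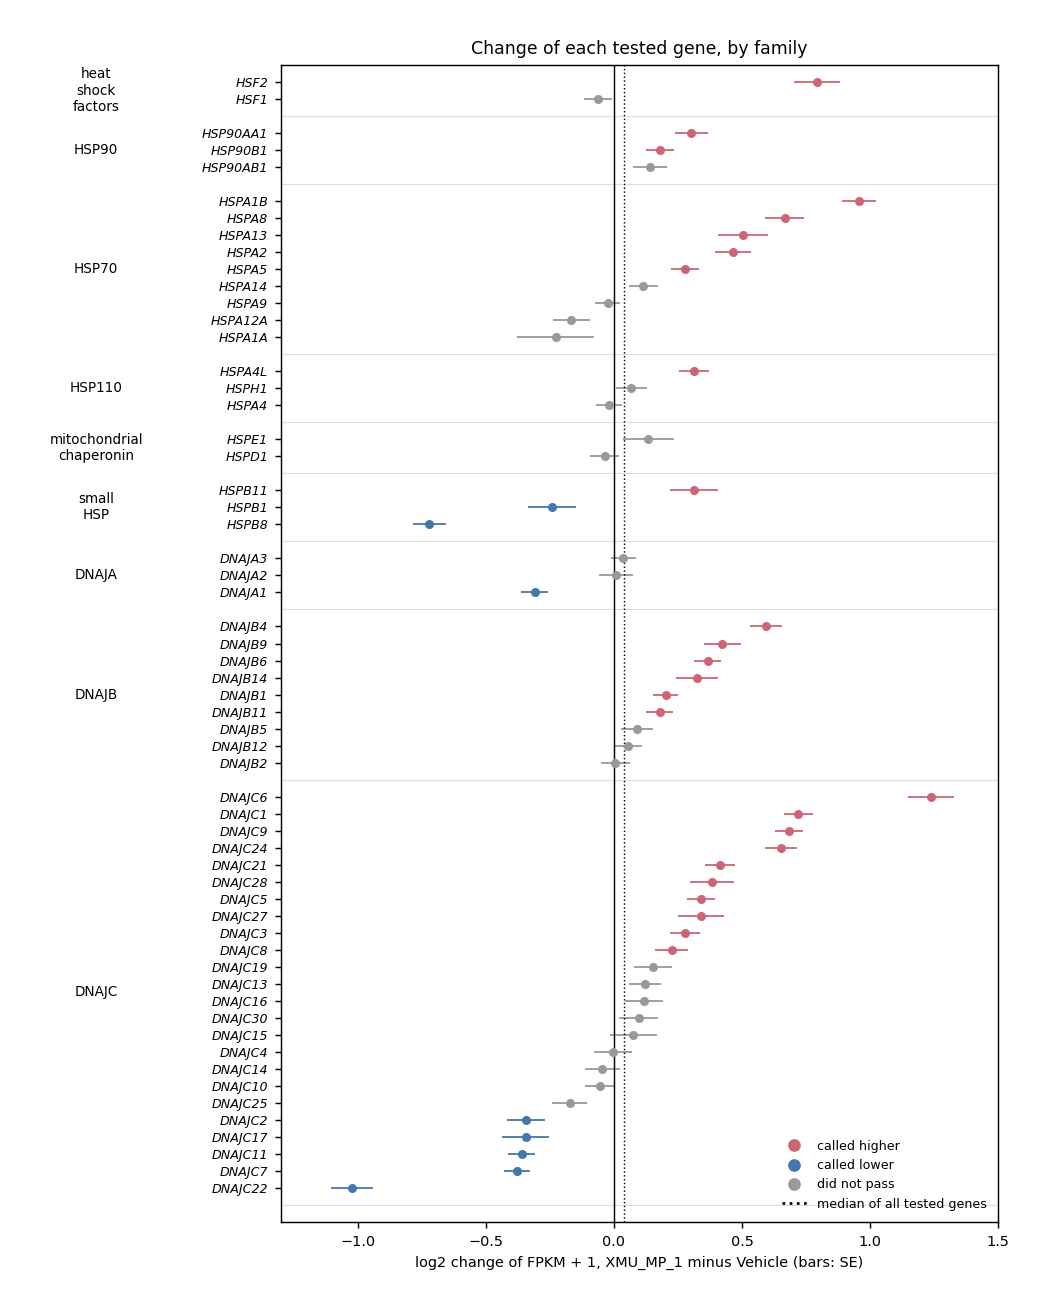
Log2 change of FPKM + 1 (XMU_MP_1 minus Vehicle, x axis) of the 58 tested genes, grouped by family and ordered within it, with bars for the standard error; red points passed as higher, blue as lower and grey did not pass, and the dotted line is the median of all 11151 tested genes. The changes run from -1.02 for DNAJC22 to 1.24 for DNAJC6, which reached the level for testing only through the XMU_MP_1 libraries. In the HSP90, HSP70, HSP110 and DNAJB families no gene passed as lower, beside 25.9% of all tested genes.

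Of the heat shock factors HSF2 rose and HSF1 did not pass. HSF2, a relative of HSF1 that binds the same elements, was at 5.01, 4.87 and 5.89 FPKM in Vehicle and at 10.84, 9.98 and 8.72 FPKM with XMU_MP_1. All 3 treated libraries lay above all 3 controls, and the log2 change was 0.79 ± 0.089 (SE, limma adjusted p = 2.63e-05). HSF2 lies on chromosome 6 (122399546 to 122433119, GRCh38, GENCODE 29). HSF1, the main factor of the heat shock response, was at 113.20, 110.55 and 113.62 FPKM in Vehicle and at 102.07, 107.86 and 113.10 FPKM with XMU_MP_1. Its groups overlapped, with a log2 change of -0.06 ± 0.054 (adjusted p = 0.335), and its mean remained the higher of the 2 factors in both groups. HSF1 passed as lower with libraries scaled to the same sum (adjusted p = 0.0222, in a range of 0.0222 to 1 over the alternatives) and without both Vehicle replicate 2 and XMU_MP_1 replicate 3, and its exons overlap those of DGAT1 on the other strand.

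HSPA8, which encodes the constitutive cytosolic chaperone HSC70, was the most abundant member in Vehicle and added more FPKM than any other member. It was at 1470.30, 1431.08 and 1482.40 FPKM in Vehicle and at 2260.43, 2245.98 and 2463.09 FPKM with XMU_MP_1. The groups were far apart relative to their spread, with a 1.59-fold higher mean and a log2 change of 0.67 ± 0.076 (limma adjusted p = 2.82e-05). HSPA8 lies on chromosome 11 (123057489 to 123063230). The difference of its means, 862 FPKM, compares with a difference of 1339 FPKM between the summed means of all 71 genes, 7447 and 8786 FPKM. HSP90AA1 added 190 FPKM and HSPA1B 160, and HSPB1 fell by 194. The 5 genes with the highest Vehicle means, HSPA8, HSPB1, HSP90AB1, HSP90AA1 and HSPD1, held 65.6% of the summed FPKM of all members in Vehicle and 66.4% with XMU_MP_1.

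HSPA1B, a gene of the stress-inducible HSP72, also rose. It was at 162.33, 175.68 and 168.14 FPKM in Vehicle and at 346.74, 337.26 and 301.79 FPKM with XMU_MP_1, a log2 change of 0.96 ± 0.067 (adjusted p = 8.09e-07). Its neighbour HSPA1A, which encodes the same protein, was at 3.45, 6.26 and 5.18 FPKM in Vehicle and at 3.49, 4.51 and 4.03 FPKM with XMU_MP_1, with overlapping groups (log2 change -0.23 ± 0.151, adjusted p = 0.22). HSPA1A passed as lower without Vehicle replicate 1. HSPA1A (31815464 to 31817946) and HSPA1B (31827735 to 31830255) lie next to each other on chromosome 6. Of all 50-base windows of their longest coding transcripts, 72.56% of HSPA1A and 73.46% of HSPA1B occur in another annotated gene, each other first of all. The labels do not say how shared reads were assigned, so the split of FPKM between both genes is uncertain. Their sum does not depend on that split. It was 165.78, 181.94 and 173.32 FPKM in Vehicle and 350.23, 341.77 and 305.82 FPKM with XMU_MP_1, a log2 change of 0.93 ± 0.068.

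**Figure D2:**
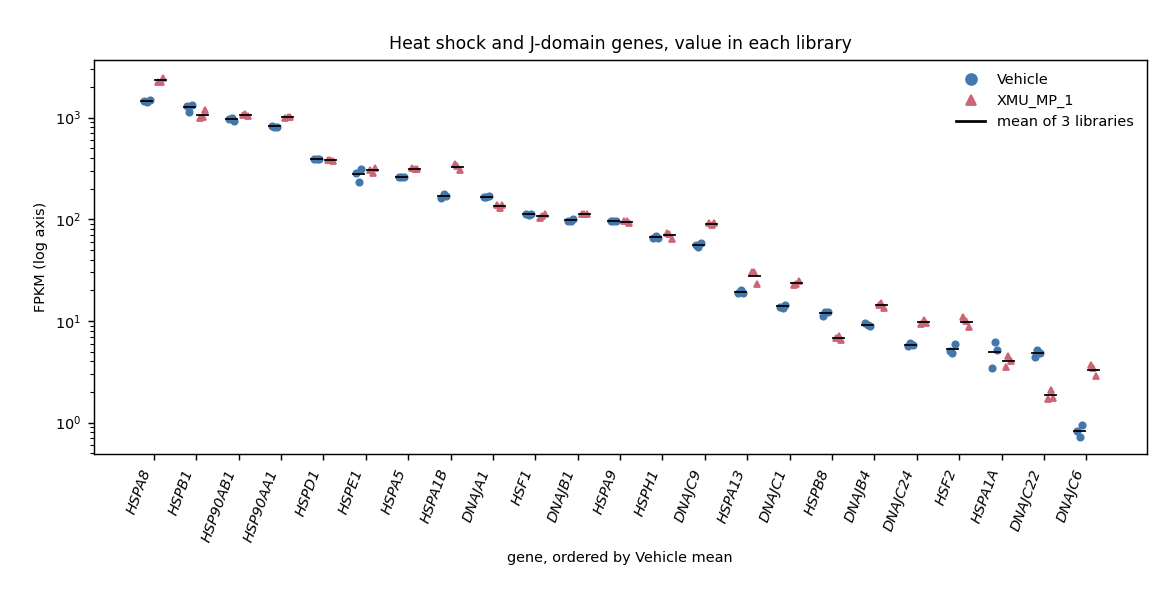
FPKM (log axis) of 23 genes in each of the 6 libraries, with Vehicle as blue circles, XMU_MP_1 as red triangles and black lines for the means of 3 libraries, ordered by the Vehicle mean. HSPA8 leads at 1461 and 2323 FPKM, the groups of HSPA1B and HSF2 are clearly apart, and those of HSPB1, HSF1 and HSPA1A overlap.

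Of the 9 tested HSP70 genes 5 rose and 0 fell (limma, 1 lower at an unadjusted p under 0.05), with a median log2 change of 0.28. The share called, 55.6%, was near the 57.9% of all tested genes. HSPA2, best known from testis, was at 4.38 ± 0.277 and 6.42 ± 0.381 FPKM (log2 change 0.47, adjusted p = 2.33e-04). HSPA13, a microsomal HSP70 without the usual client-binding domain, was at 18.72, 20.33 and 18.65 FPKM in Vehicle and at 30.45, 30.39 and 22.86 FPKM with XMU_MP_1. XMU_MP_1 replicate 3 lay well below the others but above every control (log2 change 0.50 ± 0.097, adjusted p = 0.00117). HSPA9, the mitochondrial HSP70 mortalin, was at 97.0, 95.98 and 96.68 FPKM in Vehicle and at 95.20, 96.95 and 92.44 FPKM with XMU_MP_1 (log2 change -0.03 ± 0.048, adjusted p = 0.67), so that its groups overlapped. HSPA14, which partners the ribosome-bound DNAJC2, and the divergent HSPA12A did not pass, with log2 changes of 0.11 and -0.17. HSPA12A passed as lower under each of the 3 other scalings (same summed FPKM, quantile and median ratio). HSPA6, the strictly heat-inducible HSP70B', was too low to be tested, at 0.51 ± 0.19 and 0.31 ± 0.0755 FPKM. HSPA1L and HSPA12B were below 0.4 FPKM in every library.

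Of the HSP110 genes, whose products recharge HSP70 with ATP, HSPA4L rose and HSPH1 and HSPA4 did not pass (33.3% called, beside 57.9% of all tested genes). HSPH1 was at 65.42, 69.16 and 65.04 FPKM in Vehicle and at 73.47, 71.66 and 64.33 FPKM with XMU_MP_1. XMU_MP_1 replicate 3 was the lowest of all 6, and the log2 change was 0.07 ± 0.060 (adjusted p = 0.366). Without both Vehicle replicate 2 and XMU_MP_1 replicate 3 it passed as higher (adjusted p = 0.00409, in a range of 0.00409 to 1 over the alternatives), and with libraries scaled to the same sum its log2 change was -0.03. HSPA4L rose from 11.2 ± 0.32 to 14.2 ± 0.624 FPKM (log2 change 0.31, adjusted p = 9.27e-04), and HSPA4, at 60.4 ± 1.65 and 59.5 ± 2.32 FPKM, did not pass.

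Cytosolic HSP90 is encoded by HSP90AA1, the stress-responsive alpha form, and HSP90AB1, the constitutive beta form. HSP90AA1 was at 833.89, 808.69 and 809.99 FPKM in Vehicle and at 1000.47, 1017.76 and 1003.40 FPKM with XMU_MP_1. All treated libraries were higher, by 1.23-fold in the mean (log2 change 0.30 ± 0.064, adjusted p = 0.00208). The call was lost under quantile normalization, where the log2 change was 0.11, and with the closest pair of each group averaged. HSP90AB1 was at 961.57, 985.91 and 934.75 FPKM in Vehicle and at 1066.57, 1074.91 and 1033.62 FPKM with XMU_MP_1. Its groups did not overlap, but its log2 change of 0.14 ± 0.066 missed the threshold (adjusted p = 0.0926). HSP90AB1 passed without Vehicle replicate 2, and under quantile normalization its log2 change was -0.02. The gene HSP90B1 of the ER form GRP94 rose from 331 ± 4.09 to 376 ± 3.02 FPKM (log2 change 0.18, adjusted p = 0.0164), a call that was lost without Vehicle replicate 1, without XMU_MP_1 replicate 1 and without XMU_MP_1 replicate 2.

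Ratios within a library were compared for 6 pairs of genes by exact two-sided permutation tests, in which 3 libraries against 3 cannot give a p below 0.1. A scaling factor common to all genes of a library cannot alter such ratios, whereas quantile normalization can. The ratio of HSP90AA1 to HSP90AB1 was 0.867, 0.820 and 0.867 in Vehicle and 0.938, 0.947 and 0.971 with XMU_MP_1, so that the alpha form gained on the beta form in every treated library (exact p = 0.1, 0.2 adjusted over the 6 pairs). The ratio of DNAJB1, the classical HSP40, to HSPA8 was 0.0655, 0.0678 and 0.0678 in Vehicle and 0.0499, 0.0499 and 0.0462 with XMU_MP_1 (exact p = 0.1, adjusted 0.2). HSPA8 thus outgrew this co-chaperone in all 3 treated libraries. The ratio of HSPA1B to HSPA1A also did not overlap between groups (log2 difference 1.23, exact p = 0.1, adjusted 0.2), with the limit on these 2 genes given above. The ratios HSPA1B to HSPA8 (log2 difference 0.29, exact p = 0.2, adjusted 0.3), HSPD1 to HSPE1 (-0.17, exact p = 0.4, adjusted 0.4) and HSPH1 to HSPA4 (0.09, exact p = 0.4, adjusted 0.4) gave larger p-values. The HSPA1B to HSPA8 groups overlapped slightly, with XMU_MP_1 replicate 3 just below Vehicle replicate 2, both 0.123 when rounded.

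**Figure D3:**
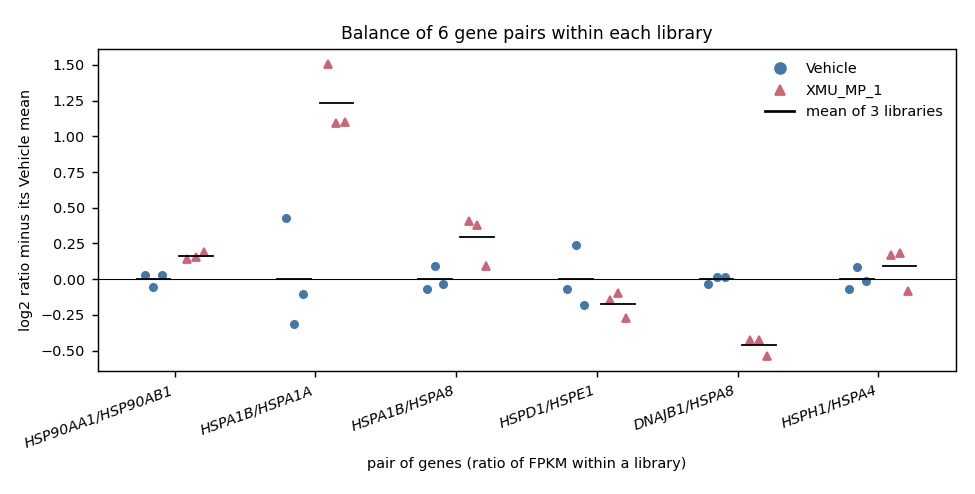
Log2 of the ratio of FPKM of 2 genes within a library, minus its Vehicle mean (y axis), for 6 pairs of genes, with Vehicle as blue circles, XMU_MP_1 as red triangles and black lines for the means of 3 libraries. HSP90AA1/HSP90AB1 and HSPA1B/HSPA1A lie higher and DNAJB1/HSPA8 lies lower in every treated library, with differences of 0.16, 1.23 and -0.46.

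Of the mitochondrial chaperones named here, HSPD1, HSPE1 and HSPA9 did not pass. HSPD1, which encodes the chaperonin HSP60, was at 388.99, 387.06 and 390.48 FPKM in Vehicle and at 386.75, 381.37 and 370.00 FPKM with XMU_MP_1. The treated libraries were all slightly lower, by a log2 change of -0.04 ± 0.056 (adjusted p = 0.61). HSPE1, which encodes its lid HSP10, was at 287.20, 231.27 and 313.15 FPKM in Vehicle and at 302.27, 287.96 and 316.36 FPKM with XMU_MP_1. Vehicle replicate 2 was the lowest library, and the groups overlapped (log2 change 0.13 ± 0.099, adjusted p = 0.265). Both genes lie head to head on chromosome 2, and their annotated exons overlap on opposite strands. Of 8 tested members placed in mitochondria here 0 rose (limma, 0 higher at an unadjusted p under 0.05) and 1 fell. Their median log2 change was 0.06, and of all tested genes 32.0% were higher and 25.9% lower. DNAJC4, which did not pass, and DNAJC28, which passed as higher but was bound to differ, were not placed there. A different placing could alter these counts. Without Vehicle replicate 3, 1 of the 8 rose. The one that fell was DNAJC11, a J-domain protein associated with the cristae-organising MICOS complex, which went from 32.1 ± 0.901 to 24.8 ± 0.905 FPKM (adjusted p = 1.6e-04). DNAJA3, DNAJC15, DNAJC19 and DNAJC30 did not pass, with log2 changes of 0.04 to 0.15.

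In the endoplasmic reticulum (ER) 7 of 10 tested members rose and 0 fell (limma, 1 lower at an unadjusted p under 0.05), with a median log2 change of 0.23, beside 32.0% of all tested genes higher and 25.9% lower. With libraries scaled to the same summed FPKM the counts were 4 higher and 1 lower, as DNAJB11, DNAJC3 and HSP90B1 no longer passed and DNAJC25 passed as lower. DNAJB14, which rose, and DNAJB12, which did not pass, were placed apart as ER membrane members and are not among the 10, whereas DNAJC1 is. HSPA5, which encodes the ER HSP70 BiP, was at 258.00, 260.75 and 258.54 FPKM in Vehicle and at 319.67, 312.14 and 310.62 FPKM with XMU_MP_1. Both groups were tight and separate (log2 change 0.28 ± 0.053, adjusted p = 0.00117). The promoter windows of HSPA5 and HSP90B1 were the only member windows with the ER stress element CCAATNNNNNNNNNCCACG on either strand, which 0.0769% of all windows held. DNAJC1, an ER membrane protein whose J domain recruits BiP, was at 13.64, 13.51 and 14.50 FPKM in Vehicle and at 22.56, 23.11 and 24.92 FPKM with XMU_MP_1. The treated libraries were about as far above the controls as for HSPA8 in log2 terms (0.72 ± 0.058, adjusted p = 2.46e-06). DNAJB9 (ERdj4) rose by a log2 change of 0.42, DNAJC3 (the kinase inhibitor p58IPK) by 0.28 and DNAJB11 (ERdj3) by 0.18, the last a call lost without Vehicle replicate 1 or XMU_MP_1 replicate 1. The disulfide reductase gene DNAJC10, DNAJC16 and DNAJC25 did not pass, with log2 changes of -0.06, 0.12 and -0.17. The groups of DNAJC25 did not overlap, its adjusted p was 0.0501, and it passed as lower under each other scaling, without the trend, with a mean of at least 5 FPKM and without XMU_MP_1 replicate 1.

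Of the 3 tested genes with HSPB symbols, HSPB1 and HSPB8 fell and HSPB11 rose, beside 32.0% of all tested genes higher and 25.9% lower. HSPB1, which encodes HSP27, was at 1293.80, 1135.32 and 1341.41 FPKM in Vehicle and at 998.51, 1005.50 and 1185.66 FPKM with XMU_MP_1. XMU_MP_1 replicate 3 lay above Vehicle replicate 2, so the groups overlapped, and the log2 change was -0.24 ± 0.093 (adjusted p = 0.0453). That call was lost in 8 of 18 alternatives, among them those without Vehicle replicate 1, Vehicle replicate 3, XMU_MP_1 replicate 1 or XMU_MP_1 replicate 2. HSPB8, a partner of BAG3 in the disposal of misfolded proteins, was at 11.10, 12.31 and 12.15 FPKM in Vehicle and at 6.79, 7.10 and 6.51 FPKM with XMU_MP_1. Here the groups were well apart, with a 1.74-fold fall (log2 change -0.72 ± 0.065, adjusted p = 5.38e-06). HSPB8 lies on chromosome 12 (119178642 to 119221131). HSPB11, which despite its symbol is the intraflagellar transport protein IFT25, rose from 56.2 ± 8.58 to 69.6 ± 2.83 FPKM (adjusted p = 0.015), a call lost without XMU_MP_1 replicate 1 and without XMU_MP_1 replicate 3. HSPB6 and HSPB9 were too low to be tested.

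As shares of a library's summed FPKM, the HSP70 genes together went from 0.423%, 0.446% and 0.425% in Vehicle to 0.617%, 0.620% and 0.613% with XMU_MP_1. The small HSP genes went from 0.281%, 0.263% and 0.291% to 0.215%, 0.218% and 0.239%. Both shares were apart, in opposite directions, but each lay mostly in 1 gene. In Vehicle replicate 1, HSPA8 held 1470 of the 2047 FPKM of the HSP70 genes. HSPB1 held 1293.80 of the 1364 FPKM of the small HSP genes there. The FPKM groups of HSPB1 overlapped, and its call was kept in 10 of 18 alternatives. The small HSP sum also includes HSPB11, which rose. The HSP90 genes held 0.439%, 0.466% and 0.427% in Vehicle and 0.487%, 0.498% and 0.457% with XMU_MP_1, and the J-domain genes 0.215%, 0.225% and 0.218% against 0.226%, 0.227% and 0.214%. For these 2 families the groups overlapped. Shares are given as a description without a test.

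**Figure D4:**
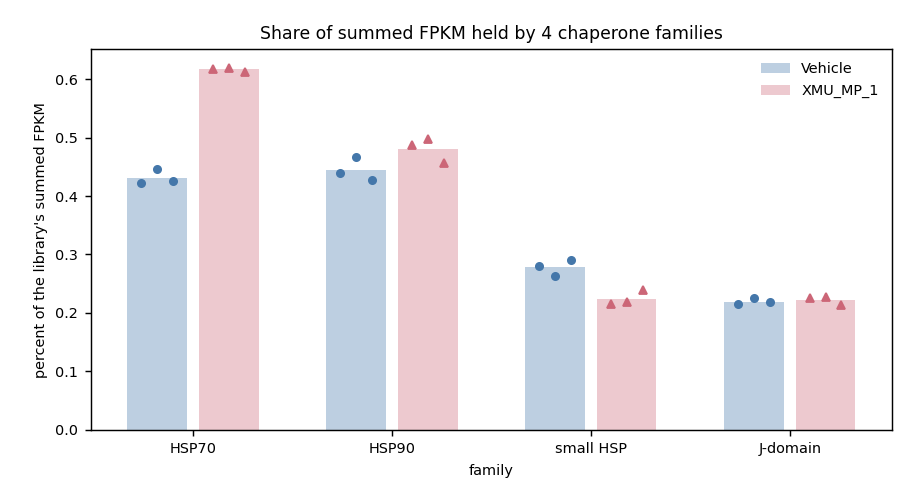
Percent of the library's summed FPKM (y axis, from 0) held by the HSP70, HSP90, small HSP and J-domain genes, with bars for the mean of 3 libraries and points for each library, Vehicle in blue and XMU_MP_1 in red. HSP70 moves from 0.423% to 0.446% up to 0.613% to 0.620%, while the J-domain points overlap.

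J-domain proteins are sorted into classes A, B and C by how much of the bacterial DnaJ layout they keep. Of the 3 tested class A genes 0 rose (limma, 0 at an unadjusted p under 0.05) and DNAJA1 fell, beside 32.0% of all tested genes higher and 25.9% lower. DNAJA1, an abundant cytosolic partner of HSC70, was at 166.12, 164.60 and 170.35 FPKM in Vehicle and at 137.38, 129.50 and 137.11 FPKM with XMU_MP_1, a clear separation downward (log2 change -0.31 ± 0.052, adjusted p = 4.39e-04). DNAJA2, another cytosolic partner, was at 29.3 ± 0.857 and 29.5 ± 2.49 FPKM (adjusted p = 0.925). DNAJA4 was at or below 0.09 FPKM in every library.

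Of the 9 tested class B genes 6 rose and 0 fell (limma, 0 lower at an unadjusted p under 0.05), with a median log2 change of 0.20, beside 32.0% of all tested genes higher and 25.9% lower. The count of rises was 3 with libraries scaled to the same summed FPKM and also 3 with the closest pairs averaged, where DNAJB1, DNAJB11 and DNAJB14 did not pass. DNAJB1 was at 96.31, 97.05 and 100.54 FPKM in Vehicle and at 112.88, 111.98 and 113.69 FPKM with XMU_MP_1. The rise was small and even across libraries (log2 change 0.20 ± 0.048, adjusted p = 0.00413), and its call was lost with libraries scaled to the same sum and with the closest pairs averaged. DNAJB4, a near relative of DNAJB1, was at 9.59, 9.05 and 8.96 FPKM in Vehicle and at 14.49, 15.17 and 13.52 FPKM with XMU_MP_1. This was the largest change in class B (log2 change 0.59 ± 0.063, adjusted p = 1.7e-05). DNAJB6, a suppressor of polyglutamine aggregation, rose from 122 ± 4.68 to 158 ± 5.5 FPKM (adjusted p = 1.97e-04), and DNAJB14, which sits in the ER membrane, from 7.64 ± 0.653 to 9.82 ± 0.952 FPKM (adjusted p = 0.00618). DNAJB2, DNAJB5 and DNAJB12 did not pass, with log2 changes of 0.005 to 0.09.

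Class C proteins share little beyond the J domain, and of 24 tested genes 10 rose, 5 fell and 9 did not pass. The 62.5% called was near the 57.9% of all tested genes. DNAJC6, which encodes auxilin, a co-chaperone that strips clathrin from vesicles and is best known from neurons, was at 0.82, 0.73 and 0.95 FPKM in Vehicle and at 3.71, 3.42 and 2.86 FPKM with XMU_MP_1. Its mean was 4.0-fold higher with XMU_MP_1, a log2(FPKM + 1) change of 1.24 ± 0.089. Like DNAJC28, it reached the level for testing through the XMU_MP_1 libraries and was bound to differ. Its call is therefore no support for a rise, and both genes are in the count of 10. DNAJC6 lies on chromosome 1 (65248219 to 65415869). GAK, its relative of wider expression, was at 28.0 ± 1.19 and 26.8 ± 1.16 FPKM and did not pass (adjusted p = 0.384).

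DNAJC9, a co-chaperone of histones H3 and H4, was at 55.35, 53.74 and 59.02 FPKM in Vehicle and at 91.09, 87.53 and 92.89 FPKM with XMU_MP_1 (log2 change 0.68 ± 0.054, adjusted p = 2e-06). The groups were separate, and its exons overlap those of MRPS16 on the same strand. DNAJC24, which takes part in the synthesis of diphthamide on elongation factor 2, was at 5.61, 6.03 and 5.84 FPKM in Vehicle and at 9.33, 10.20 and 9.65 FPKM with XMU_MP_1. It rose in all treated libraries (log2 change 0.65 ± 0.063, adjusted p = 9.21e-06). DNAJC21, which acts in the maturation of the large ribosomal subunit, rose by a log2 change of 0.41. DNAJC5, the cysteine string protein of secretory vesicles, rose by 0.34. The splicing-associated DNAJC8 rose by 0.22, a call lost with libraries scaled to the same summed FPKM. DNAJC27, a small GTPase fused to a J domain, rose by 0.34 from a Vehicle mean of 1.06 FPKM. DNAJC28 had a log2 change of 0.38, but it was bound to differ, as stated above, so its call is no support for a rise.

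DNAJC22, a multi-pass membrane J protein, fell furthest of all members. It was at 4.39, 5.19 and 4.85 FPKM in Vehicle and at 1.72, 2.11 and 1.75 FPKM with XMU_MP_1, a ratio of Vehicle to XMU_MP_1 means of 2.59 (log2 change -1.02 ± 0.082, adjusted p = 2.23e-06). DNAJC22 lies on chromosome 12 (49346917 to 49357546). DNAJC7, which binds both HSP70 and HSP90, fell from 56.8 ± 1.07 to 43.5 ± 1.91 FPKM (adjusted p = 1.04e-04), and its exons overlap those of CNP and NKIRAS2 on the other strand. DNAJC2, the ribosome-bound partner of HSPA14, fell from 41.9 ± 1.55 to 33.0 ± 3.54 FPKM (adjusted p = 0.00243), and DNAJC17, which is linked to splicing, from 7.5 ± 0.964 to 5.69 ± 0.561 FPKM (adjusted p = 0.00835). Against a minimum fold of 1.5 the members that passed were DNAJC6, HSPA1B and DNAJC22. Of these, DNAJC6 reached the level for testing only through the XMU_MP_1 libraries.

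Members with a 3-unit heat shock element were found in each direction. Of the 7 genes that held it, HSPA8, HSP90AA1 and DNAJB6 rose, DNAJA1 fell, HSP90AB1 and HSPD1 did not pass and HSPA6 was not tested. Of 21 members with at least 1 element of 2 units, 8 rose, 3 fell, 5 did not pass and 5 were not tested. Of all tested genes, 32.0% were higher and 25.9% lower. The 2-unit element was in 13.5% of all windows, a share of windows, whereas members are counted as genes with 1 or more windows. Among 13 tested HSF1 targets outside these families 3 rose and 1 fell (30.8% called, against 57.9% of all tested genes), with a median log2 change of 0.10. The count of rises was 1 with the closest pairs averaged. IER5, which encodes a regulator of HSF1, rose from 9.23 ± 0.101 to 17.0 ± 0.221 FPKM (adjusted p = 5.27e-07), and the ubiquitin gene UBB rose by a log2 change of 0.29. STIP1, the adaptor between HSP70 and HSP90, rose by 0.23. SERPINH1, which encodes the collagen chaperone HSP47, fell from 141 ± 4.46 to 94.9 ± 1.38 FPKM (adjusted p = 4.49e-06). BAG3, CHORDC1, AHSA1, FKBP4, DEDD2, ZFAND2A, MRPL18, CACYBP and PTGES3 did not pass. BAG3, often taken as a readout of HSF1, was at 56.0 ± 1.15 and 58.6 ± 2.33 FPKM (adjusted p = 0.299). Of 5 genes that regulate HSF1 3 rose (60.0% called, near the 57.9% of all tested genes), the deacetylase gene SIRT1 from 6.89 ± 0.495 to 15.4 ± 1.53 FPKM, the ubiquitin ligase gene FBXW7 and the acetyltransferase gene EP300, and 0 fell (limma, 0 lower at an unadjusted p under 0.05). The groups of EP300 overlapped (10.46 to 12.72 FPKM in Vehicle, 11.77 to 15.36 FPKM with XMU_MP_1), and the count of rises in this list was 2 without Vehicle replicate 1, Vehicle replicate 3, XMU_MP_1 replicate 1 or XMU_MP_1 replicate 2.

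The partners of HSP70 and HSP90 were also read. Of 13 tested nucleotide exchange factors and other HSP70 co-chaperones 7 rose and 0 fell (limma, 0 lower at an unadjusted p under 0.05), with a median log2 change of 0.19, and 53.8% called beside 57.9% of all tested genes. Scaling to the same summed FPKM gave 5 higher and 1 lower. BAG1 rose from 6.09 ± 0.104 to 10.6 ± 0.508 FPKM (adjusted p = 4.25e-06), the mitochondrial exchange factor gene GRPEL1 from 31.0 ± 2.09 to 39.4 ± 1.27 (adjusted p = 6.3e-04) and the ubiquitin ligase gene STUB1 from 95.5 ± 6.85 to 121 ± 5.61 (adjusted p = 0.00104). Of 22 tested HSP90 co-chaperones 9 rose and 2 fell, with a median of 0.10, so that 11 of 22 were called, beside 57.9% of all tested genes. Scaled to the same summed FPKM, 5 were higher and 4 lower. The count of falls was 1 without Vehicle replicate 1, Vehicle replicate 3, XMU_MP_1 replicate 1 or XMU_MP_1 replicate 2, and 3 without Vehicle replicate 2 or XMU_MP_1 replicate 3. RPAP3, FKBP5 and PIH1D1 rose by log2 changes of 0.44, 0.42 and 0.35, and TOMM34 and RUVBL1 fell by 0.30 and 0.13. Of 14 tested genes of the cytosolic chaperonin and of prefoldin 3 rose (PFDN2, CCT8 and CCT7) and CCT5 fell, with a median of 0.07. The share called was 28.6%, beside 57.9% of all tested genes. When scaled to the same summed FPKM 1 was higher and 5 lower, and under median ratio scaling 1 and 3. Leaving out single libraries gave 0 to 2 higher and 0 to 3 lower, with 0 of either without XMU_MP_1 replicate 1, so that no direction is given for this list. Of 10 mitochondrial chaperone and protease genes 2 rose (AFG3L2 and CLPB) and 2 fell (CLPP and HTRA2), with a median of 0.03. Of these, 40.0% were called, beside 57.9% of all tested genes. The count of falls was 1 without Vehicle replicate 1, Vehicle replicate 3, XMU_MP_1 replicate 1 or XMU_MP_1 replicate 2, and 0 with the closest pairs averaged. The 3 J-domain genes read under other symbols, HSCB, SEC63 and GAK, did not pass (limma, 0 of them at an unadjusted p under 0.05), with log2 changes of -0.075 to 0.018.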

How the data were processed

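Expression was read from 6 BGISEQ-500 libraries, a platform named by the labels' protocols. The authors deposited 1 FPKM value per gene symbol and library, given to 2 decimals, per the file headers. GRCh38 is the only build in the submitters' processing notes. Alignment, quantification, gene models, strand and the treatment of shared reads are unstated, and no depth is known.

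Genes averaging 1 FPKM or more (11151) were fitted on log2(FPKM + 1) by limma 3.58.1 (statmod 1.5.0, R 4.3.3). The model held group alone, and variances were moderated robustly around a trend. P-values are two-sided and Benjamini-Hochberg adjusted over all tested genes. Log2 changes understate those of low genes. The script was tested on simulated data. Members and gene lists were chosen with earlier results of these data known. A few genes of the other lists are not reported here and are left out of the counts. Values are given for each library for members past the threshold with an absolute log2 change of at least 0.5 and for 15 members whatever their result. Of the other lists, up to 3 genes with the smallest adjusted p in each direction are named, and further genes were named after their values were seen. Gene positions, exon overlaps and transcripts are those of GENCODE 29, and promoter windows those of RefSeq (GRCh38.p14), which held 63 of the 71 members.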

Additional observations from a re-analysis of the deposited data

How the results depend on the processing

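Of the 34 members that passed, 22 (16 higher, 6 lower) kept their call and direction in all of the alternatives but the minimum fold. Against a minimum fold of 1.5, 2 members were higher and 1 lower, and of all tested genes 158 were higher and 455 lower. With libraries scaled to the same summed FPKM, 2255 of all tested genes were higher. Leaving out each replicate in turn gave 23 to 28 members higher and 7 to 8 lower, and 3053 to 3590 of all tested genes higher and 2545 to 2850 lower. Without both libraries that stand apart 30 members were higher and 9 lower, beside 36.0% and 28.4% of all tested genes. With the closest pair of each group averaged 21 members were higher and 7 lower, beside 24.6% and 21.7% of all tested genes. Whether the replicate numbers pair the samples is not stated by the labels. The deviations of same-numbered libraries from their group means correlated at -0.20, 0.39 and 0.24. Those of differently numbered libraries correlated at -0.46 to 0.34. These values cannot settle the pairing, since the deviations within a group are bound to each other by its mean. HSPA1A and HSP90AB1 passed under the replicate block. With it 28 members were higher and 10 lower, and 3956 and 3093 of all tested genes. Differences in the 6 ratios of gene pairs without each replicate ran from 0.14 to 0.18 for HSP90AA1/HSP90AB1 and from -0.48 to -0.43 for DNAJB1/HSPA8. Low members are limited by the unknown depth and the 2 decimals of the values.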

Other observations

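Of the 13 members that were not tested, 11 were below 1 FPKM in every library. The read-through gene DNAJC25-GNG10 was at 0.36, 0.40 and 0.66 FPKM in Vehicle and at 0, 2.18 and 0 FPKM with XMU_MP_1, so that 1 treated library held its highest value, and 93.42% of the 50-base windows of its transcript occur in another gene. DNAJB3 was listed at 0 in all 3 XMU_MP_1 libraries and at 0.20, 0.04 and 0.08 FPKM in Vehicle. Of the 58 tested members, 15 share more than 10% of these windows with another gene, 22 have exons that overlap another gene on the other strand and 13 on the same strand.

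The log2(FPKM + 1) of Vehicle replicate 2 minus the mean of the other Vehicle libraries was lowest for HSPB11 and HSPE1, at -0.37 each, with longest coding transcripts of 915 and 950 bases. Next came DNAJC15 at -0.31, whose transcript is long (7853 bases), DNAJC19 at -0.24 (1454 bases) and HSPB1 at -0.21 (909 bases). Across the 58 tested members this difference had a Spearman rho of 0.47 with the length of the longest coding transcript, and the matching difference of XMU_MP_1 replicate 3 had a rho of -0.43. These are descriptions across genes that share libraries, and genes are not independent replicates. The log2 change between groups had a rho of 0.06 with length.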
